A study of Rattus norvegicus with 54 samples.

Results

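A set of 10 genes of the thick, thin and Z-disc parts of the cardiac sarcomere were followed through the infarcted rat left ventricle: Actc1, Acta1, Tnnt2, Tnni3, Tnni1, Tnnc1, Tpm1, Ttn, Mybpc3 and Actn2. They were chosen by name, by matching their symbols to the first column of every count file, and all 10 were found among the 40319 genes listed. The rats were female athymic nude rats (F344/NJcl-rnu/rnu), 8 weeks old at surgery, and 3 treatments of 6 hearts each were compared 1 week later. Sham hearts had no coronary ligation, MI hearts had a permanent ligation of the left anterior descending coronary artery with no further treatment, and cell sheet hearts had the same ligation followed by a bi-level sheet of human smooth muscle cells and endothelial progenitor cells laid on the epicardium. Each heart gave an infarct zone (anterior wall), a border zone (lateral wall) and a remote zone (septum), so that 9 groups of 6 libraries were read, 54 in all. All animals lacked a thymus, the sheet was human while the counts were made on the rat genome, and only tissue below the ligature was taken. By their labels the 6 libraries in a group are technical replicates, although the methods describe 6 separate hearts, and p-values measure the spread between these libraries.

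Thin filaments of the sarcomere are built from actin, along which tropomyosin and the troponin complex lie, and the binding of calcium to troponin C moves this complex so that myosin can reach actin. Titin spans from the Z-disc to the middle of the sarcomere as a spring, myosin-binding protein C regulates the thick filament, and alpha-actinin anchors thin filaments at the Z-disc. Several of these proteins exist as a fetal or skeletal form beside an adult cardiac form: skeletal alpha-actin (Acta1) beside cardiac alpha-actin (Actc1), and slow skeletal troponin I (Tnni1), the form of the fetal heart, beside cardiac troponin I (Tnni3). Re-expression of Acta1 is a classical part of the fetal gene program of the stressed rodent heart.

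The start regions of those 4 isoform genes are shown because the ratios of each pair carry much of what follows. The bases are from the RefSeq annotation of rat build GRCr8, which is a later build than that of the counts, and each run holds 150 bases before and 20 after the annotated start, 5' to 3' on the gene's strand. Acta1 lay at chr19:68784175-68784344 (minus strand), Actc1 at chr3:121271808-121271977 (minus strand), Tnni1 at chr13:49781379-49781548 (plus strand) and Tnni3 at chr1:78342421-78342590 (plus strand). Capitals mark matches, on either strand, to the CArG box, the MEF2 site, the MCAT element CATTCC and the TATA box letters TATAAA, where present.
Acta1: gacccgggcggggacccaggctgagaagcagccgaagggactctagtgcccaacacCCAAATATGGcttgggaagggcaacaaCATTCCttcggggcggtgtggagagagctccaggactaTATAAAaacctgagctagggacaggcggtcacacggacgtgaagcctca
Actc1: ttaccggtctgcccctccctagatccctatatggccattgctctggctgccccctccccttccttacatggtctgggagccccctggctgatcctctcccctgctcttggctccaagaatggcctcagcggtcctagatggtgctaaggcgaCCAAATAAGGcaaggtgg
Tnni1: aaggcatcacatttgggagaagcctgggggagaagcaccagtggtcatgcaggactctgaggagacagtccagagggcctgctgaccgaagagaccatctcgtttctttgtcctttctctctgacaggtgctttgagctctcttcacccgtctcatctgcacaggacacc
Tnni3: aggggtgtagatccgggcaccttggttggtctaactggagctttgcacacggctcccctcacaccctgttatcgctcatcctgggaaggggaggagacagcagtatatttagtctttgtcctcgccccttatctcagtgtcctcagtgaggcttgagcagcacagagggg

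In the Acta1 run a CArG box began 94 bases before the start, an MCAT element 67 and a TATA box 29 before it. The Actc1 run had a single match, a CArG box from base 3 after the start, and neither troponin I run held a match. Of the 10 members, 9 had a window of 250 bases before to 50 after the start, Tnnc1 being the one left out. A CArG box stood in 1.64% of all 33469 rat windows of that length, a MEF2 site in 3.29%, an MCAT element in 14.2% and the TATA box letters in 14.2%. Among the other members, Tnnt2, Tpm1 and Ttn held an MCAT element and Mybpc3 and Ttn a MEF2 site. These are letter matches and say nothing of binding.

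Counts on genes ran from 12699204 to 23397754 per library, and levels are given as counts scaled to library size (CPM, with TMM factors), for which counting error was small in all members but Tnni1. Median counts of the other members over the 54 libraries lay between 4776.5 (Acta1) and 95501.5 (Actc1), against 15 for Tnni1. The 10 genes took a median of 4.40% of gene counts in sham infarct zones, 1.13% in MI infarct zones and 0.37% in cell sheet infarct zones. Libraries of 2 hearts stood apart from their groups. In sham replicate 5, 12 cardiomyocyte reference genes (calcium handling, Z-disc and energy genes with no sarcomere member) summed to 11863 to 14822 CPM, where the other sham hearts had 35871 to 45196 CPM, while 5 macrophage markers summed to 6601 to 11678 CPM against at most 614. In cell sheet replicate 1, the reference genes summed to 117 CPM in the border zone and to 11548 in the remote zone, where the other 5 libraries had 27276 to 41374. Results that rest on these libraries are given with and without them.

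Ligation was followed by lower levels of nearly the whole set, most in the infarct and border zones, and no member passed the test between cell sheet and untreated MI hearts in those zones. In the infarct zone, 8 of the 10 members were lower in MI than in sham hearts (adjusted p under 0.05, edgeR quasi-likelihood test), where 49.9% of the 15758 genes tested passed. The border-zone count was again 8, with 41.7% of genes passing, and the remote-zone count was 4, with 25.8% passing. The median log2 fold change of the members was -1.71 (infarct) and -1.53 (border), beside -0.02 over all genes in each. In tissue of mixed cell types, fewer cardiomyocytes and less of an RNA per cardiomyocyte cannot be told apart. Reference cardiomyocyte genes moved with the members: their summed CPM had medians of 39960 (infarct), 38318 (border) and 36602 (remote) in sham hearts and of 6242, 12626 and 23322 in MI hearts. The sum of 6 fibroblast markers moved the other way, with medians of 3920, 4560 and 3516 CPM in sham and 27200, 22508 and 13445 CPM in MI hearts. The macrophage markers had sham medians of 441, 483 and 273 CPM and MI medians of 5133, 5834 and 1682 CPM in the same order. The part of these cells in the results was not tested.

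**Figure D1:**
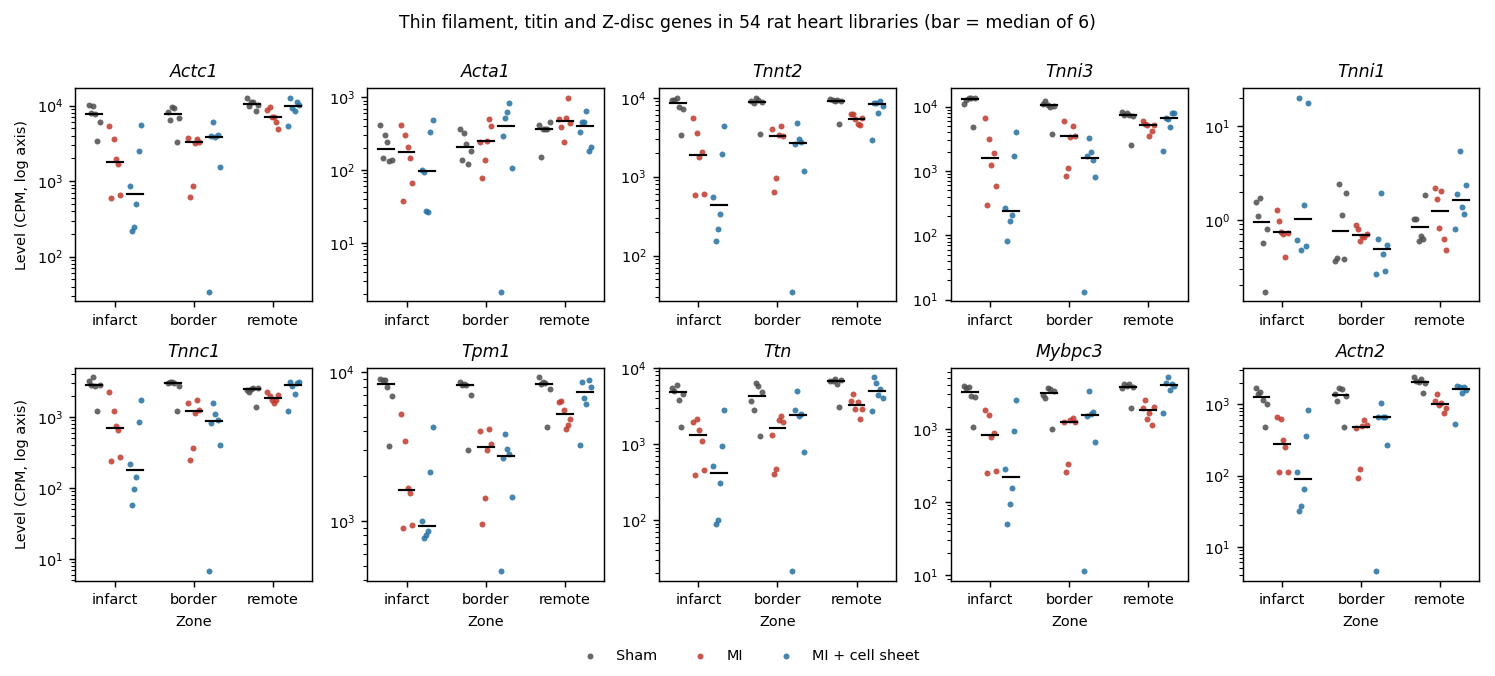
Levels of the 10 members in each of the 54 libraries, in CPM on a log axis, by zone and treatment; each point is a library and the bar is the group median. Sham medians lie highest in the infarct and border zones for 8 genes, and the ranges meet, for example between 3367 and 10325 CPM for Actc1 in the infarct zone against 592 to 5296 in MI hearts, while Acta1 and Tnni1 overlap throughout.

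Actc1, the main actin of the adult heart, ran from 3367 through a median of 7814 to 10325 CPM in sham infarct zones. In MI infarct zones it ran from 592 through 1799 to 5296 CPM, and in cell sheet infarct zones from 221 through 681 to 5509 CPM. The medians fell in that order, but every pair of groups overlapped, because the lowest sham library (replicate 5) lay below the highest MI and cell sheet libraries. The difference of MI from sham was -1.72 (log2, SE 0.53, edgeR adjusted p = 0.0176). For the border zone Actc1 had medians of 7637 CPM in sham, 3260 in MI and 3891 in cell sheet hearts, and MI differed from sham by -1.51 (SE 0.47, edgeR adjusted p = 0.0224). Its remote-zone range was 8438 to 12564 CPM in sham and 4852 to 9702 in MI hearts, a difference of -0.54 that did not pass (edgeR adjusted p = 0.052). Without sham replicate 5 it was -0.60 (adjusted p = 0.0116).

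Acta1, the skeletal alpha-actin, did not follow Actc1. In the infarct zone it ran from 133 through 196 to 419 CPM in sham, from 37.9 through 178 to 411 in MI and from 26.7 through 97.2 to 493 in cell sheet hearts. The corresponding remote-zone values were 153, 369 and 455 CPM in sham, 247, 467 and 985 in MI and 180, 401 and 641 in cell sheet hearts. The groups overlapped over most of their ranges in every zone. MI differed from sham by -0.23 in the infarct (SE 0.52, edgeR adjusted p = 0.73), 0.25 in the border (SE 0.42, adjusted p = 0.653) and 0.53 in the remote zone (SE 0.31, adjusted p = 0.22).

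Of the troponin complex, Tnni3 differed most between MI and sham by fold change in the infarct zone. This inhibitory subunit ran from 4766 through 12997 to 13760 CPM in sham, from 296 through 1579 to 6565 in MI and from 80.8 through 236 to 4057 in cell sheet infarct zones. Cell sheet hearts did not overlap sham hearts, whereas the highest MI library lay above sham replicate 5. MI differed from sham by -2.32 (log2, SE 0.65, edgeR adjusted p = 0.0116) in infarct and by -1.55 (adjusted p = 0.0238) in border samples. Remote-zone Tnni3 had medians of 7309 CPM in sham and 5188 in MI hearts, a difference of -0.46 (edgeR adjusted p = 0.196) that became -0.63 (adjusted p = 0.00264) without sham replicate 5.

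Tnnt2, the tropomyosin-binding subunit, and Tnnc1, the calcium-binding subunit shared by heart and slow skeletal muscle, fell together with Tnni3 in MI. Tnnt2 ran from 3350 through 8504 to 9997 CPM in sham infarct zones and from 587 through 1899 to 5555 in MI, a difference of -1.73 (SE 0.54, edgeR adjusted p = 0.0185). For Tnnc1 the infarct-zone medians were 2849 CPM in sham and 699 in MI, and the difference was -1.60 (SE 0.51, edgeR adjusted p = 0.021). Both groups overlapped through sham replicate 5. Border-zone differences were -1.56 for Tnnt2 (edgeR adjusted p = 0.0205) and -1.34 for Tnnc1 (adjusted p = 0.0311). Leaving out any of 7 single libraries took the border-zone call of Tnnc1 away, with adjusted p up to 0.0585 over the 12 libraries left out in turn: sham replicates 1, 2, 3, 4 and 6 and MI replicates 3 and 4. Remote-zone Tnnt2 had medians of 9222 CPM in sham and 5454 in MI hearts, and the difference was -0.66 (SE 0.19, edgeR adjusted p = 0.0246). That call was lost without any of MI replicates 4 and 5 or sham replicates 1 to 4, with adjusted p up to 0.06. Tnnc1 differed by -0.27 there (adjusted p = 0.227), and by -0.38 without sham replicate 5 (adjusted p = 0.0131).

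Tpm1, the main tropomyosin of the rodent heart, had an infarct-zone range of 3207 to 8933 CPM in sham hearts, with a median of 8379. In MI hearts the range was 897 to 5193 CPM around a median of 1612. MI differed from sham by -1.71 (infarct, SE 0.46, edgeR adjusted p = 0.00993), -1.38 (border, SE 0.39, adjusted p = 0.0161) and -0.56 (remote, adjusted p = 0.0577). Without sham replicate 5 the remote difference was -0.68 (adjusted p = 0.0016), and without MI replicate 2 it was -0.62 (adjusted p = 0.0441). Unlike the troponins, Tpm1 stayed at 461 CPM or more in every library, including the cell sheet border library of replicate 1, where Tnni3 was at 13.3 CPM. Vertebrate Tpm1 is also spliced into forms used by smooth muscle and other cells, and counts per gene do not separate them.

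The 3 structural members Ttn, Mybpc3 and Actn2 fell in all zones, and beside Tnnt2 they were the members called in the remote zone. Ttn, the giant spring protein, had sham medians of 4772 CPM (infarct), 4239 CPM (border) and 6734 CPM (remote), and MI medians of 1328, 1638 and 3223 CPM. Its differences of MI from sham were -1.79 (SE 0.46, edgeR adjusted p = 0.00727), -1.54 (adjusted p = 0.0274) and -0.89 (SE 0.23, adjusted p = 0.013) in that order. The border-zone call was lost without MI replicate 3 or without any of sham replicates 3, 4 and 6, with adjusted p up to 0.0601.

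Mybpc3, the cardiac myosin-binding protein C and a frequent site of hypertrophic cardiomyopathy mutations, ran from 1952 through 3789 to 4098 CPM in sham remote zones and from 1149 through 1810 to 2476 CPM in MI remote zones. Only sham replicate 5 lay within the MI range, and the difference was -1.01 (SE 0.22, edgeR adjusted p = 0.00581). In the infarct and border zones Mybpc3 differed by -1.68 (adjusted p = 0.0159) and -1.56 (adjusted p = 0.0183).

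Actn2, the alpha-actinin of cardiac Z-discs, was the member whose sham and MI remote groups did not overlap. Overlap of groups was read for the members only, in this and every other comparison. The share of all genes without overlap was not counted. It ran from 1445 through 2070 to 2407 CPM in sham and from 766 through 1003 to 1403 CPM in MI remote zones, a difference of -0.99 (SE 0.16, edgeR adjusted p = 0.00159). In the infarct and border zones it differed by -1.79 (adjusted p = 0.0094) and -1.75 (adjusted p = 0.0122). Without sham replicate 5, 8 members were lower in MI remote zones, the same 8 genes as in the other zones, while 7177 of 15444 genes were called. The infarct and border counts stayed at 8, with 10434 of 16107 and 9641 of 15849 genes called.

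An interaction term, with the heart as a block, asked whether MI acted unequally on infarct and remote zones. The infarct-zone effect was the more negative for 5 of 10 members, where 28.9% of the 16445 genes tested passed in either direction. These were Tnni3 at -2.47 (SE 0.60, edgeR adjusted p = 0.00932), Tnnc1 at -1.68 (adjusted p = 0.0176), Tpm1 at -1.39 (adjusted p = 0.0188), Actc1 at -1.46 (adjusted p = 0.0411) and Tnnt2 at -1.44 (adjusted p = 0.0495). For Ttn (-1.04, adjusted p = 0.103), Actn2 (-1.01, adjusted p = 0.117), Acta1 (-1.02, adjusted p = 0.218), Mybpc3 (-0.89, adjusted p = 0.254) and Tnni1 (-0.49, adjusted p = 0.551) the difference between zones did not pass. Without sham replicate 5 the Tnnt2 value was -1.51 (adjusted p = 0.0666), which left 4 members, where 4101 of 16556 genes were called.

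**Figure D2:**
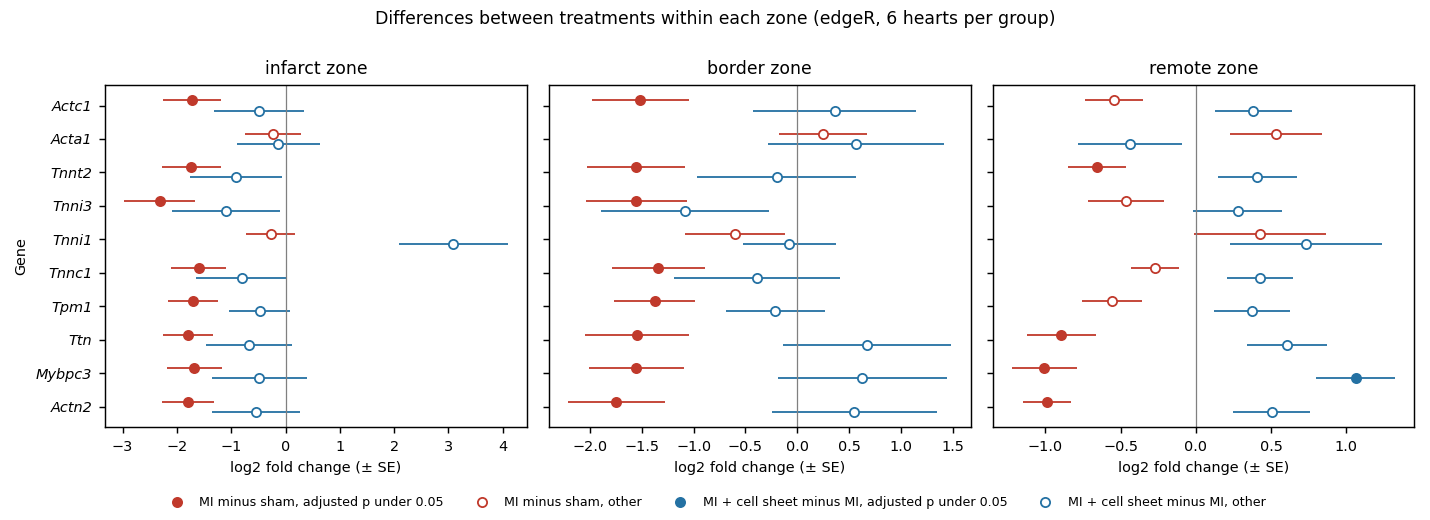
Log2 fold changes of the 10 members in each zone for MI against sham and cell sheet against MI, from the edgeR quasi-likelihood fits, with bars of 1 SE. Filled points passed an adjusted p of 0.05. Most points of MI against sham are filled in the infarct and border zones, and Mybpc3 at 1.06 in the remote zone is the filled point of cell sheet against MI.

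Cell sheet hearts were next compared with untreated MI hearts. In the infarct zone, no member passed (0 called by edgeR, 1 at an unadjusted p under 0.05, which was Tnni1, and 0 by DESeq2), and the share of all genes called was 0% of 16196, with 1341 genes at an unadjusted p under 0.05 and 56 called by DESeq2. The differences ran from -1.10 for Tnni3 (SE 1.00, edgeR adjusted p = 0.789) to -0.13 for Acta1 (adjusted p = 0.974), with Tnni1 at 3.09 (SE 1.00, adjusted p = 0.484). Standard errors ran from 0.56 to 1.00, against 0.45 to 0.65 for MI and sham in that zone, so that a difference of the size seen between MI and sham could be missed. At the border no member passed either (0 called by edgeR, 0 at an unadjusted p under 0.05 and 0 by DESeq2), while 18% of 16272 genes passed. There the differences ran from -1.08 for Tnni3 (SE 0.82, adjusted p = 0.39) to 0.68 for Ttn (SE 0.81, adjusted p = 0.609). The border-zone spread of cell sheet hearts was wide: Actc1 ran from 34.4 through 3891 to 6001 CPM and Tnnt2 from 35.1 through 2676 to 4818 CPM. Replicate 1 was the lowest for all 10 members, and adipocyte markers summed to 340 CPM in it, within the range of 0.0485 to 506 CPM in that group. No member was called in the border zone without it.

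In the remote zone, Mybpc3 was higher in cell sheet than in MI hearts, the one member called where 17.1% of 15374 genes passed. It ran from 1679 through 3989 to 5096 CPM in cell sheet hearts, against 1149 through 1810 to 2476 CPM in MI hearts. Apart from replicate 1, which lay within the MI range, the cell sheet libraries lay above every MI library. The difference was 1.06 (log2, SE 0.26, edgeR adjusted p = 0.0202), and it was 1.21 (adjusted p = 0.000564) without cell sheet replicate 1 and 0.96 (adjusted p = 0.0512) without MI replicate 5. Ttn differed by 0.61 (SE 0.26, adjusted p = 0.121), Actn2 by 0.50 (adjusted p = 0.178), Tnnc1 by 0.43 (adjusted p = 0.18), Tnnt2 by 0.41 (adjusted p = 0.284) and Acta1 by -0.44 (SE 0.35, adjusted p = 0.384). Without cell sheet replicate 1, 6 members were higher in the remote zone: Mybpc3, Ttn at 0.73 (adjusted p = 0.0156), Actn2 at 0.68 (adjusted p = 0.00336), Tnnt2 at 0.57 (adjusted p = 0.0124), Tnnc1 at 0.57 (adjusted p = 0.00784) and Tpm1 at 0.52 (adjusted p = 0.0319). The number of genes called over the whole table rose with them, to 6450 of 15502. The reference genes had a median summed CPM of 33004 in these cell sheet libraries against 23322 in MI, fibroblast markers 4292 against 13445 and macrophage markers 382 against 1682; their part in the difference was not tested. A difference of the cell sheet effect between zones was called for no member: 0 by edgeR for the border against the remote zone, with 1 (Tnni1, -0.99) at an unadjusted p under 0.05, and 0 for the infarct against the remote zone, with 1 (Mybpc3, -2.41). The share of all genes called was 0% in both, and no other tool was run on these. Without cell sheet replicate 1 no member was called either, while 216 of 16901 genes were called for the border and 2011 of 17041 for the infarct against the remote zone.

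Against sham, the infarct zone of cell sheet hearts had 8 members lower and 1 higher, where 57.9% of 15687 genes passed. Tnni3 differed by -3.42 (SE 0.94, edgeR adjusted p = 0.00894), Tnnt2 by -2.65 (adjusted p = 0.0144), Tnnc1 by -2.41 (adjusted p = 0.0195), Tpm1 by -2.18 (SE 0.50, adjusted p = 0.00346) and Mybpc3 by -2.17 (adjusted p = 0.0439). The Mybpc3 call was lost in 10 of 12 runs that left out 1 library, all but those without cell sheet replicate 6 or sham replicate 5, with adjusted p up to 0.0855. The Actc1 difference of -2.22 (adjusted p = 0.027) was -2.08 (adjusted p = 0.0571) without cell sheet replicate 1 and -2.03 (adjusted p = 0.0552) without replicate 4. At the border Tnni3 (-2.67, SE 0.81, adjusted p = 0.0185) and Tpm1 (-1.62, SE 0.46, adjusted p = 0.0138) were lower, 2 members where 43.6% of 15960 genes passed. Tnni3 ran from 13.3 through 1588 to 3256 CPM there, below the whole sham range of 3699 to 12182. Tnnt2 (-1.79, adjusted p = 0.0647) and Tnnc1 (-1.76, adjusted p = 0.0764) joined these 2 without cell sheet replicate 1 (-1.53 and -1.50, adjusted p = 0.0088 and 0.00605) and without sham replicate 5 (-1.95 and -1.92, adjusted p = 0.0387 and 0.0488), and Tnnt2 alone joined without cell sheet replicate 3 (-2.10, adjusted p = 0.046). The genes called over the whole table were 6334 of 16060 without cell sheet replicate 1 and 9954 of 16160 without sham replicate 5. Remote zones of cell sheet hearts had no member past the threshold against sham (0 called by edgeR, 1 at an unadjusted p under 0.05, which was Tnni1 at 1.15, and 0 by DESeq2), with 0.0066% of 15157 genes passing. The lowest remote difference was -0.49 for Actn2 (SE 0.25, adjusted p = 0.542).

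Within hearts, zones were compared with the heart as a block. Sham hearts already had a pattern along the wall: Tnni3 was higher in the infarct-equivalent anterior wall than in the septum by 0.79 (SE 0.10, edgeR adjusted p = 2.83e-05), and Actn2 (-0.84, adjusted p = 0.000189), Acta1 (-0.67, adjusted p = 0.0127), Actc1 (-0.55, adjusted p = 0.0059), Ttn (-0.53, adjusted p = 0.000887) and Mybpc3 (-0.33, adjusted p = 0.0403) were lower. That made 6 members where 32.4% of 15077 genes passed. The lateral wall differed from the septum for the same 6 genes in the same directions, with Tnni3 at 0.52 (adjusted p = 0.00288) and Actn2 at -0.76 (adjusted p = 0.00324), where 25.7% of 15074 genes passed. These 2 comparisons share the septum libraries. The Mybpc3 calls were the least firm: the anterior one was lost without any of sham replicates 2, 4, 5 and 6 (adjusted p up to 0.136) and the lateral one without replicate 1 or 2 (up to 0.0825). Tnnc1, at 0.24 and 0.21, was called in both without sham replicate 5 (0.32 and 0.30, adjusted p = 0.0072 and 0.0144).

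In MI hearts the infarct zone was lower than the remote zone of the same hearts for 8 members, where 36.4% of 15901 genes passed. Here Acta1 fell with the others, by -1.70 (SE 0.52, edgeR adjusted p = 0.0344), beside Actc1 at -2.02 (adjusted p = 0.0136) and Actn2 at -1.86 (adjusted p = 0.0136). Ttn (-1.58, adjusted p = 0.0233) and Actn2 did not overlap between the zones, whereas Mybpc3 differed by -1.22 (adjusted p = 0.098). The count depended on single hearts: it was 2 without replicate 4 or replicate 6, 4 without replicate 5 and 5 without replicate 2. Genes called over the whole table in those runs are not given here. Whether members lost calls more than other genes therefore cannot be read from these counts. Between border and remote zones no member was called (0 by edgeR, 8 at an unadjusted p under 0.05 and 8 by DESeq2), and 0% of 15738 genes passed in edgeR, with 5943 at an unadjusted p under 0.05 and 4347 by DESeq2. Actc1 (-1.73, adjusted p = 0.0762), Tnnt2 (-1.23, adjusted p = 0.107) and Actn2 (-1.68, adjusted p = 0.0756) did not overlap between these zones, which by itself is no call. For neither pair of zones was the share of all genes without overlap counted.

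In cell sheet hearts the infarct zone was lower than the remote zone for 8 members, where 62.8% of 15854 genes passed, from -3.73 for Tnni3 (SE 0.86, edgeR adjusted p = 0.00814) to -2.34 for Tpm1 (SE 0.45, adjusted p = 0.00457). Acta1 differed by -1.83 (SE 0.99, adjusted p = 0.14), or by -2.46 (adjusted p = 0.048) without replicate 6. The border zone was lower than the remote zone for 4 members, where 56.4% of 15904 genes passed: Tnni3 at -2.53 (adjusted p = 0.0321), Tnnt2 at -2.12 (adjusted p = 0.0414), Tpm1 at -1.70 (adjusted p = 0.00683) and Tnni1 at -1.69 (SE 0.20, adjusted p = 0.00294). Without the heart of replicate 1, whose libraries stood apart, 9 members were lower in the border zone, all but Acta1, where 9063 of 15849 genes were called. The calls of Tnni3 and Tnnt2 were lost without any of replicates 2, 5 and 6 (adjusted p up to 0.0847 and 0.103), and that of Tnnt2 also without replicate 4 (0.0558).

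To see which members changed by more or less than other cardiomyocyte genes, the MI and sham libraries were rescaled to the 12 reference genes. On that scale the median over all genes shifted by 2.55 (infarct), 1.93 (border) and 0.56 (remote), and changes are read against the reference genes, not against this shift. In the infarct zone 2 members were higher, where 87.6% of genes passed in either direction: Acta1 at 1.69 (SE 0.43, edgeR adjusted p = 0.00251) and Tnni1 at 2.59 (SE 0.66, adjusted p = 0.00241). The same 2 genes were higher at the border, with Acta1 at 1.87 (SE 0.39, adjusted p = 0.0056) and Tnni1 at 1.61 (SE 0.62, adjusted p = 0.0286), where 80.2% of genes passed. With the TMM scaling used elsewhere, Acta1 was at -0.23 and 0.25 and Tnni1 at -0.28 and -0.60 in these zones, so the direction of both depends on the scaling, and on the reference scale Acta1 in both zones and Tnni1 at the border rose by less than the median gene. The other 8 members lay between -0.58 (Tnni3, adjusted p = 0.129) and 0.40 (Tpm1) for infarct and between -0.18 (Actn2) and 0.32 (Tpm1) for border samples, and none of these passed.

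On the reference scale in the remote zone, Tnnc1 was higher by 0.42 (SE 0.12, edgeR adjusted p = 0.0257), where 24.7% of genes passed. The adult structural genes were at or below the reference, with Actn2 at -0.34 (adjusted p = 0.0819), Mybpc3 at -0.33 (adjusted p = 0.0611) and Ttn at -0.20 (adjusted p = 0.159), and Acta1 was at 1.23 (adjusted p = 0.054). Without sham replicate 5, 4 members passed, which added Acta1 (1.52, adjusted p = 0.00193), Tnni1 (1.14, adjusted p = 0.0277) and Mybpc3 (-0.30, adjusted p = 0.0424) to Tnnc1, but 12250 of 15444 genes were then called, a larger share than among the members, and the median gene shifted by 0.88. For cell sheet against MI on this scale no member was called in any zone (0 by edgeR, with 1, 0 and 2 at an unadjusted p under 0.05 in the infarct, border and remote zones; no other tool was run), and the shares of all genes called were 0%, 0% and 0.28%. Without cell sheet replicate 1 the remote zone had 3 members: Acta1 lower (-1.17, adjusted p = 0.0326), Tnni3 lower (-0.28, adjusted p = 0.0474) and Mybpc3 higher (0.51, adjusted p = 0.0108), but 10613 of 15502 genes were then called, again a larger share than among the members. The median gene moved by -0.75 in that run and by -0.37 with all libraries, so that Tnni3 fell by less than the median gene.

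**Figure D3:**
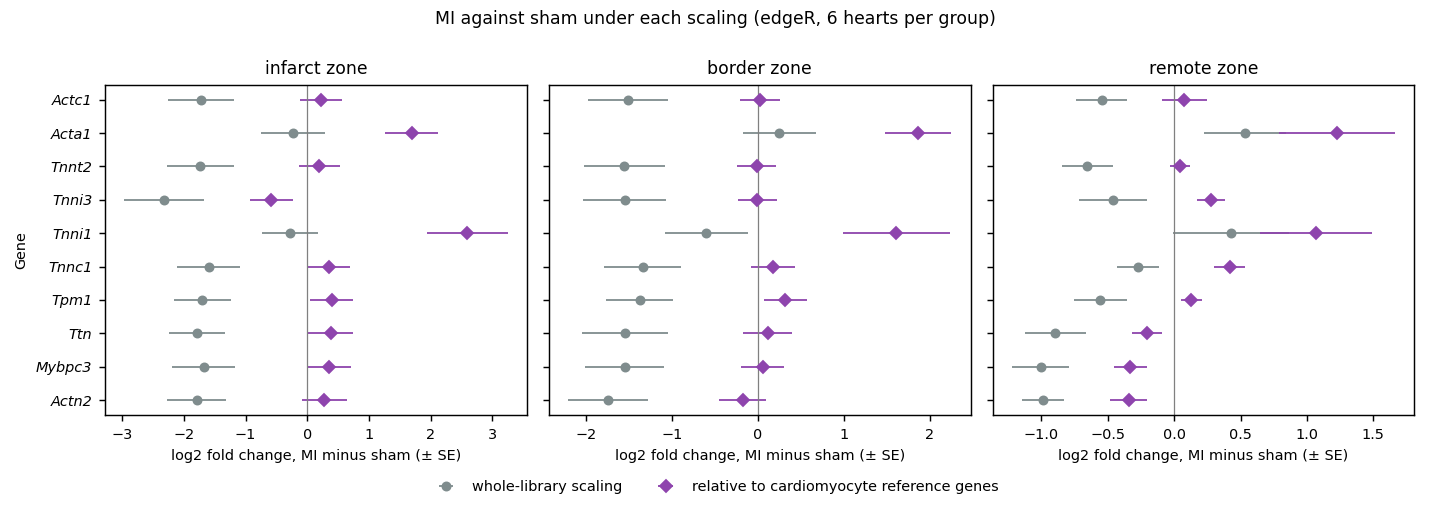
Log2 fold changes of MI against sham for the 10 members in each zone with TMM scaling and with scaling to 12 reference cardiomyocyte genes, with bars of 1 SE. On the reference scale 8 members lie near 0 in the infarct and border zones, and Acta1 (1.69 and 1.87) and Tnni1 (2.59 and 1.61) lie above it.

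Ratios of 2 genes within a library do not depend on library scaling. Acta1 counts were 1.85% to 4.06% of Actc1 counts in sham infarct zones, with a median of 3.10%. They were 6.41% to 10.8% (median 8.71%) in MI and 5.32% to 42.3% (median 11.4%) in cell sheet infarct zones. Every MI and cell sheet library thus lay above every sham library. The log2 ratio was higher in MI than in sham by 1.55 (SE 0.21, exact permutation test, 2-sided, p = 0.00216, the smallest possible, adjusted p = 0.00649 over 18 comparisons) and in cell sheet than in sham by 2.07 (SE 0.44, exact permutation p = 0.00216, adjusted p = 0.00649).

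The border zone gave the same separation for the actins. There the medians were 3.02% in sham, 12.4% in MI and 8.02% in cell sheet hearts, and the differences from sham were 1.86 (SE 0.26) for MI and 1.70 (SE 0.33) for the cell sheet, both without overlap (exact permutation, adjusted p = 0.00649). Remote-zone percentages ran from 1.56% through 3.31% to 4.51% in sham, from 3.46% through 6.59% to 16.3% in MI and from 1.62% through 4.29% to 7.65% in cell sheet hearts, and all groups overlapped. MI differed from sham by 1.05 (SE 0.40, exact permutation p = 0.026, adjusted p = 0.0519) and the cell sheet from sham by 0.24 (SE 0.43, adjusted p = 0.612). Cell sheet and MI hearts were not shown to differ in the Acta1 to Actc1 ratio in the infarct (0.52, SE 0.42, adjusted p = 0.312), border (-0.16, SE 0.35, adjusted p = 0.626) or remote zone (-0.82, SE 0.49, adjusted p = 0.201) by the exact permutation test. In the infarct and border zones of MI hearts, Actc1 CPM fell while the difference of Acta1 CPM did not pass the test.

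Tnni1 was read at the edge of detection beside Tnni3. Its counts were a median of 0.00761% of Tnni3 counts in sham, 0.0416% in MI and 0.37% in cell sheet infarct zones. Again no sham library reached the lowest of either other group. MI differed from sham by 2.85 (log2, SE 0.75, exact permutation p = 0.00216, adjusted p = 0.00649) and the cell sheet from sham by 6.08 (SE 1.32, adjusted p = 0.00649), the latter with a range up to 25.1%. Border-zone differences from sham were 1.57 for MI (SE 0.66, exact permutation p = 0.0433, adjusted p = 0.0708) and 2.97 for the cell sheet (SE 1.12, adjusted p = 0.0111). Remote-zone ones were 0.70 (SE 0.49, adjusted p = 0.258) and 1.18 (SE 0.44, adjusted p = 0.0341). The last call was lost in 8 of 12 runs that left out 1 library (exact permutation, adjusted p up to 0.0649). Cell sheet and MI hearts differed by 3.23 in the infarct zone (SE 1.45, exact permutation p = 0.0325, adjusted p = 0.0584), with values of 1.40 (adjusted p = 0.303) and 0.48 (adjusted p = 0.419) in the border and remote zones. In MI infarct zones Tnni3 CPM was lower than in sham (-2.32, edgeR adjusted p = 0.0116), while the difference of Tnni1 CPM did not pass the test (-0.28, adjusted p = 0.629). Between zones of the same hearts none of 12 paired comparisons of the ratios passed (exact sign-flip permutation test, smallest possible p 0.0312). The lowest adjusted p was 0.188, for the actin ratio in the border against the remote zone of cell sheet hearts (1.38, higher in 6 of 6 hearts) and for the troponin I ratio in the infarct against the remote zone of these hearts (3.96, 6 of 6).

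Tnni1 itself was low in all but 2 libraries. Its counts ran from 3 to 93 in 52 libraries and were 306 and 470 in the cell sheet infarct libraries of replicates 6 and 2, the latter at 20.3 CPM. Elsewhere the group medians lay between 0.490 and 1.64 CPM, so that most of its values rest on few counts. The edgeR difference of cell sheet from sham in the infarct zone was 2.82 (SE 1.07, adjusted p = 0.0392). Leaving out any of 8 single libraries took that call away, all but cell sheet replicates 1, 3, 4 and 5, with differences of 2.09 to 3.06 and adjusted p up to 0.107 over the 12 runs. Without both replicates 2 and 6, a choice made after seeing the data, it was -0.35 (adjusted p = 0.631). Against MI the difference was then -0.07 (adjusted p = 0.951) in place of 3.09.

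The same pair of libraries carried markers of skeletal muscle. All 9 markers (fast myosins, the fast troponin T gene Tnnt3, Actn3, Pvalb and others) were detected in both. All 9 were also detected in MI border replicate 3, at a sum of 37.5 CPM, so the summed level sets the pair apart. The markers summed to 399 CPM in replicate 6 and 198 CPM in replicate 2 of the cell sheet infarct group, against at most 61.8 CPM in any other library. Without both libraries, the Tnni1 to Tnni3 ratio differed from sham by 4.73 (exact permutation, adjusted p = 0.0286) and from MI by 1.88 (adjusted p = 0.203). Tnni1 CPM itself did not pass against either group in that run, as given above. With all libraries, Tnni3 CPM of cell sheet infarct zones was lower than in sham (-3.42, edgeR adjusted p = 0.00894). Again without both libraries, the Acta1 to Actc1 ratio differed from sham by 1.74 (exact permutation, adjusted p = 0.0286) and from MI by 0.19 (adjusted p = 0.534). The part of skeletal muscle RNA in the Acta1 levels of these 2 libraries was not tested.

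**Figure D4:**
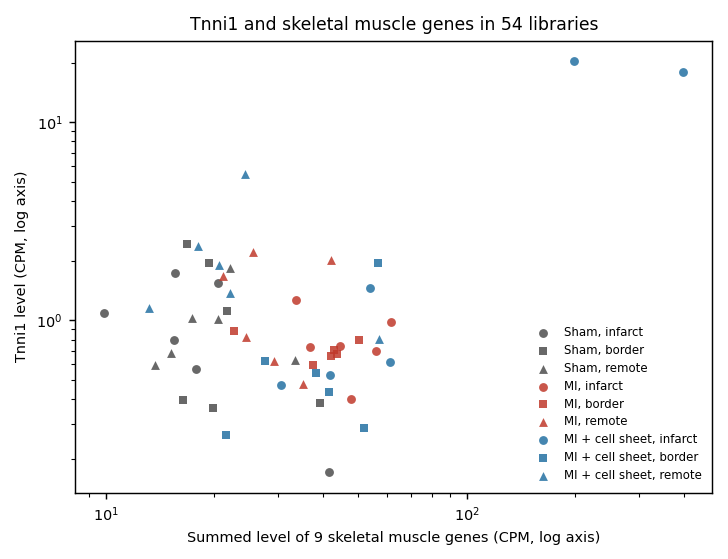
Tnni1 level against the summed level of 9 skeletal muscle markers in the 54 libraries, both in CPM on log axes. Cell sheet infarct replicates 2 and 6 stand apart with 470 and 306 counts of Tnni1 and 198 and 399 CPM of markers, and the other 52 libraries lie at or below 61.8 CPM of markers.

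Sarcomere partners outside the set followed the adult members. Of 24 partner genes (thin filament caps, M-band proteins, Z-disc proteins, chaperones and muscle ubiquitin ligases), 22 were tested. All 22 were lower in MI than in sham infarct zones, where 49.9% of all genes passed. The median difference was -1.74, with Neb at -2.52, Tmod4 at -2.32, Lmod3 at -2.16, Trim63 at -2.14, Cmya5 at -2.04 and Ldb3 at -1.88. Border zones had 21 of 22 lower (median -1.55) and remote zones 18 of 22 (median -0.89), where 41.7% and 25.8% of all genes passed. The remote-zone ones included the costameric gene Cmya5 at -1.19 and the thin filament cap gene Tmod4 at -0.98. Remote zones of cell sheet hearts had 10 of 22 partners higher than MI hearts (median 0.78), where 17.1% of all genes passed. Among them were the M-band gene Myom3 at 1.18, the myosin-folding genes Smyd1 and Unc45b at 1.14 and 0.95, Ldb3 at 0.92, the titin splicing factor Rbm20 at 0.87 and the ubiquitin ligase Fbxo32 at 0.83. None was called in the infarct or border zone of that comparison by edgeR, where 0% and 18% of all genes passed. At an unadjusted p under 0.05 there were 1 and 1, and no other tool was run on these lists. Against sham, cell sheet hearts had 19 partners lower in the infarct, 3 in the border and 0 in the remote zone (edgeR, with 1 at an unadjusted p under 0.05 in the last). The shares of all genes called were 57.9%, 43.6% and 0.0066% in that order.

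Paralogs of the members are used by smooth muscle, skeletal muscle and other cells. In the infarct zone 9 of 14 tested were higher in MI than in sham (median 1.04) and 0 were lower by edgeR, where 49.9% of all genes passed. The largest differences were those of the smooth muscle actins Actg2 (4.17) and Acta2 (3.54), then Tpm2 (2.87), the non-muscle alpha-actinin Actn1 (1.88), the fast myosin-binding protein Mybpc2 (1.54) and Tnnt3 (1.54). Border zones had 8 of 14 higher and remote zones 6 of 12, where 41.7% and 25.8% of all genes passed. Actg2 was at 3.62 and 1.86 in these zones and Acta2 at 2.99 and 1.23. The sum of 7 smooth muscle markers, which include Acta2 and Actg2, had sham medians of 290.1, 283 and 359 CPM (infarct, border, remote) and MI medians of 1153, 851 and 473 CPM, and its part in these differences was not tested. Between cell sheet and MI hearts 1 paralog was lower in the border zone (Tnnt1, -0.85, edgeR adjusted p = 0.0384) and 1 in the remote zone (Tpm3, -0.76, adjusted p = 0.0325), and none was called in the infarct zone (0 by edgeR, 3 at an unadjusted p under 0.05). The shares of all genes called were 18%, 17.1% and 0% in the border, remote and infarct zones. Against sham, 12 of 14 paralogs were higher in cell sheet infarct zones, where 57.9% of all genes passed. Actg2 was at 4.82, Tpm2 at 3.23 and the skeletal alpha-actinin Actn3 at 2.76 (edgeR adjusted p = 0.0326), and Actn3 is among the skeletal muscle markers that were high in 2 of those libraries. Actins and tropomyosins share long stretches of coding sequence, and how the authors' counting treated reads that fit several of them is not given in the sources used here.

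Across the 54 libraries, genes whose log2 CPM followed Ttn closely among 13291 compared included Myom1 (Pearson r = 0.991) and Rbm20 (0.991). For Acta1 they were Synpo2l (0.883), Phf24 (0.863) and Rxfp1 (0.848). Tnni1 had no close companion: its highest values were those of Dzip3 (0.523), Ptbp2 (0.516) and Myot (0.514). These correlations describe libraries that share treatments, zones and hearts, and no test was made of them.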

How the data were processed

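RNA of left ventricular tissue was enriched for poly(A) and sequenced in 54 libraries, 1 per heart and zone. The authors aligned paired-end reads with STAR to mRatBN7.2 and deposited, for each library, whole-number counts per gene without normalization. Which counter was used, and with what strand setting, is not given in the sources used here. The 5 summary lines of each table (17.0% to 42.8% of a library) were left out. The same replicate number in the 3 zones of a treatment was read as the same heart. The correlation of deviations between zones of a heart was 0.203 to 0.909 in sham hearts and -0.215 to 0.544 in the others.

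Each comparison was fitted on all genes with edgeR 4.0.16 in R 4.3.3 (quasi-likelihood F test, TMM scaling, the filterByExpr filter, Benjamini-Hochberg adjustment over all genes tested, threshold 0.05), with only the groups compared. All 10 members passed the filter in every comparison. The SE is the absolute log2 fold change divided by the square root of F. Ratios were log2 of counts plus 0.5 and were tested with exact permutation tests in Python 3.11.15 (SciPy 1.17.1). The reference scaling replaced library sizes by the geometric mean count plus 0.5 of Ryr2, Pln, Casq2, Jph2, Trdn, Hrc, Hspb7, Lrrc10, Ckm, Mb, Cox6a2 and Fabp3. DESeq2 1.42.0 was an alternative, beside library sizes without TMM factors, no filter, a replicate block, all groups in a single fit, another pseudocount or reference list, and leaving out single libraries, or single hearts in comparisons between zones. The fits were tested on simulated data. No 2 libraries of a group agreed within sampling noise (135 pairs).

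Members and lists were chosen with earlier results of these data known. Genes named were the 10 members, up to 6 partners and 6 paralogs per comparison with the largest change past the threshold, and the 3 genes most like Acta1, Tnni1 and Ttn (mean log2 CPM of at least 1). A gene that this rule names is not reported here. Human transcripts were not analysed here.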

Additional observations from a re-analysis of the deposited data

Results flagged for a closer look

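In groups of 6 libraries, the highest or lowest value was tested for standing apart from the rest (Dixon's criterion), which chance alone gives in about 1 of 20 groups. Over all groups of the members' levels and the ratios, 23 had such a value, and 13 of the 23 belonged to sham replicate 5, which was the lowest sham library in each of these values. They were Tnnt2 at 3433 (border) and 4600 CPM (remote), Tnni3 at 4766, 3699 and 2506 CPM in the infarct, border and remote zones, Tnnc1 at 1208, 1213 and 1364 CPM, Tpm1 at 3207, 3010 and 4268 CPM in the same order, and Ttn at 3109 and Mybpc3 at 1952 CPM in the remote zone. Macrophage markers were high in the same libraries, and their part in these levels was not tested.

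Other libraries stood apart for fewer values. Acta1 was at 985 CPM in remote replicate 5 of the MI hearts (the next library had 521 CPM) and at 153 CPM in remote replicate 2 of the sham hearts, which also had the low Acta1 to Actc1 log2 ratio of -6.01. Tnni1 was high in replicate 3 of the cell sheet border zone (1.94 CPM) and remote zone (5.46 CPM) and in sham remote replicate 6 (1.84 CPM). Ttn at 2811 CPM and Mybpc3 at 2461 CPM were high in cell sheet infarct replicate 6. Actn2 was low in cell sheet remote replicate 1 (528 CPM), and the Tnni1 to Tnni3 log2 ratio was -5.55 in cell sheet border replicate 1.

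The effect of MI differed between the infarct and the remote zone, by the interaction test, for Actc1 (-1.46), Tnnt2 (-1.44), Tnni3 (-2.47), Tnnc1 (-1.68) and Tpm1 (-1.39).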

How the results depend on the processing

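Numbers of members called changed with the design of the fit, the tool and single libraries. With all 9 groups in a single fit, MI against sham had 5 members at the border and 0 in the remote zone, cell sheet against MI 0 in the remote zone, and cell sheet against sham 4 in the border zone. Genes called in that fit were 7828 and 3581 of 17743 for MI against sham (border, remote). For cell sheet against MI in the remote zone they were 2594 of 17743. Replicate numbers do not pair hearts of different treatments, since each heart had 1 treatment. Correlations do not decide this: at most 2 of 6 were over 0.1 between treatments, but border and remote zones of MI hearts also had 2 of 6. With a replicate block the member counts of the comparisons above, in the same order, were 1, 6, 0 and 0. Genes called were then 4193 of 15641 and 4430 of 15294 for MI against sham (border, remote) and 2 of 15374 for cell sheet against MI (remote). The ratios kept their values under that block, but its 6 pairs allow no p below 0.0312, so that the number of pairs by itself can take these calls away (adjusted p = 0.0563 for Acta1 to Actc1 in MI against sham, 1.55 and 1.86, and cell sheet against sham, 2.07 and 1.70, in the infarct and border zones, and for Tnni1 to Tnni3, 2.85 in MI and 6.08 in cell sheet infarct zones and 2.97 in cell sheet border zones; 0.153 for 1.18 in the remote zone). Without the heart as a block (no replicate block), infarct against remote had 4 members in MI and 0 in sham hearts, border against remote 3 in MI, 2 in cell sheet and 0 in sham hearts, and the MI interaction 0. DESeq2 called 4 in the border zone of cell sheet against sham, and 8 and 9 between border and remote zones of MI and cell sheet hearts. Over all genes it called 8290, 4347 and 9759 in that order. On the reference scale, MI against sham in the remote zone had 6 members with Myh6, Myl2 and Myl3 as the reference and 3 without the energy genes. A pseudocount of 5 took 3 ratios past the threshold (adjusted p = 0.046): 1.05 for the actins in MI against sham remote zones, and 1.46 (MI against sham, border) and 3.13 (cell sheet against MI, infarct) for the troponins. Leaving out 1 library gave 3 to 8 members for MI against sham and 0 to 6 for cell sheet against MI in the remote zone, 2 to 4 for cell sheet against sham in the border zone, and 4 and 3 on the reference scale in the remote zone. Genes called ran from 2744 of 15410 to 7177 of 15444 for the first of these and from 1096 of 15525 to 6450 of 15502 for the second. Leaving out 1 heart, with its libraries of both zones, gave 2 to 8 for infarct against remote in MI hearts and 2 to 9 for border against remote in cell sheet hearts. Where this paragraph gives no number of genes called beside a member count, the count cannot be read against the whole table. For the ratios, leaving out 1 library moved the actin ratio over 0.79 to 1.24 (MI against sham, remote) and 0.17 to 0.76 (cell sheet against MI, infarct), and the troponin ratio over 1.22 to 1.83 (MI against sham, border), 2.11 to 4.02 (cell sheet against MI, infarct) and 0.91 to 1.41 (cell sheet against sham, remote). Tnni1 in cell sheet against sham infarct zones turned to -0.35 without both libraries with skeletal muscle markers. Library sizes without TMM factors moved the share of called genes that were higher, in MI against sham, from 45.5% to 67.1%, from 44.2% to 64.1% and from 45.1% to 68.6% by zone, with member counts of 8, 8 and 3. The share went from 49.5% to 66.3% and from 46.8% to 71.2% in cell sheet against sham (infarct, border), from 47.2% to 57.3% and from 60.2% to 48.5% in cell sheet against MI (border, remote), from 50.4% to 63.2% (MI) and from 50.1% to 64.5% (cell sheet) between infarct and remote zones, from 51.8% to 68.4% between border and remote zones of cell sheet hearts, and from 47.0% to 62.5% for the MI interaction. Of the other values of single members, 2183 kept their side of the threshold, 64 passed and 122 no longer passed. Values that changed sign without passing in either run are counted among the 2183. The cause was not tested. Among the members, counting error is large for Tnni1, with 3 to 93 counts in 52 libraries.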
